A study of Mus musculus with 2 samples.

Results

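The genes described here encode the core subunits of the ATP-dependent chromatin remodeling complexes and Trim28, a corepressor that works with them on silent chromatin. The list has 35 genes of the SWI/SNF (BAF and PBAF), ISWI, NuRD, CHD, INO80 and TIP60 families, chosen by gene name from these complexes. All 35 were found among the 18193 genes that the array's annotation names with a single symbol, through 92 probe sets. A probe set is several short oligonucleotides of a transcript that together give 1 signal. The data compare mouse embryonic stem (ES) cells labelled as a constitutive knockout of Eed (Eed KO) with ES cells labelled as the control of that knockout. Total RNA of each was hybridized to 1 Affymetrix MOE430 2.0 array. The Eed protein belongs to PRC2, the Polycomb complex that places methyl groups on histone H3 to keep developmental genes silent. Nothing in the labels says how Eed was disrupted, how many clones were used, whether the lines share a parent, or whether feeder cells were present.

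Remodelers use the energy of ATP to slide, evict or restructure nucleosomes. SWI/SNF complexes open chromatin and oppose Polycomb at many sites. NuRD joins a remodeling motor to histone deacetylases and mostly closes chromatin. ES cells are known for a particular SWI/SNF assembly, called esBAF, built on Smarca4 (BRG1), Arid1a (BAF250a), Smarcc1 (BAF155) and Smarcd1 (BAF60a), in which the paralogues Smarca2 (BRM) and Smarcc2 (BAF170) are largely absent. Mbd3, which holds NuRD together, is needed for ES cells to leave pluripotency.

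RefSeq promoter windows, which run from 250 bases before to 50 bases after an annotated start on GRCm38.p6, were found for 27 of the 35 genes, in 32 windows. Shown are the windows of 3 of the 4 genes with the largest difference between the arrays, Smarcd1, Arid1a and Mbd3, and that of Smarca2, which had the highest Eed KO signal relative to control among the matched genes. Arid2, the other of the 4, is named only. Each is written 5′ to 3′ on the gene's strand, and capitals mark the GC box GGGCGG or its reverse complement CCGCCC.
Smarcd1, chr15:99702037-99702336, plus strand: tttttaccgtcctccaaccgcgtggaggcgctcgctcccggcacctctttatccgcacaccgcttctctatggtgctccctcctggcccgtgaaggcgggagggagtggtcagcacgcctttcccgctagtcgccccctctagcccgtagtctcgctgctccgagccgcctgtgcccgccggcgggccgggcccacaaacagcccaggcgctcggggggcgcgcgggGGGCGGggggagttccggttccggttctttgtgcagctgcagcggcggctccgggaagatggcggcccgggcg
Arid1a, upstream start, chr4:133756720-133757019, minus strand: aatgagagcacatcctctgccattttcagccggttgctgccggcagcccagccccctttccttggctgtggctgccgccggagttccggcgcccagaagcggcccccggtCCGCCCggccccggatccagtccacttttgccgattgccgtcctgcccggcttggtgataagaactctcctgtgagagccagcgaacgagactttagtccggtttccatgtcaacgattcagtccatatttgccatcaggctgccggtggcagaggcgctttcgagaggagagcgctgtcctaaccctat
Arid1a, downstream start, chr4:133753936-133754235, minus strand: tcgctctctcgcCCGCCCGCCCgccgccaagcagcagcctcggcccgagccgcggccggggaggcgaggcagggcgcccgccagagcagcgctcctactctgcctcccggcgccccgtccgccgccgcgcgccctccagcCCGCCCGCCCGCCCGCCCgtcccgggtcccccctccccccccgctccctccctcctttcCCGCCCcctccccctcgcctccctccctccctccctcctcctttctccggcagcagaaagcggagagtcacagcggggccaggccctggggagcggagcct
Mbd3, chr10:80399482-80399781, minus strand: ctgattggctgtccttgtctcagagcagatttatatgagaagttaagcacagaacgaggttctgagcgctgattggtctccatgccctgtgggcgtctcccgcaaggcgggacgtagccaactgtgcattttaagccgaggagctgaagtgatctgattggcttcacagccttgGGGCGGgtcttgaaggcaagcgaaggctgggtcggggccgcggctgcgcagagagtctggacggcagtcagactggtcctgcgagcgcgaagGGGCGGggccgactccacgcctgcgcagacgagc
Smarca2, chr19:26604910-26605209, plus strand: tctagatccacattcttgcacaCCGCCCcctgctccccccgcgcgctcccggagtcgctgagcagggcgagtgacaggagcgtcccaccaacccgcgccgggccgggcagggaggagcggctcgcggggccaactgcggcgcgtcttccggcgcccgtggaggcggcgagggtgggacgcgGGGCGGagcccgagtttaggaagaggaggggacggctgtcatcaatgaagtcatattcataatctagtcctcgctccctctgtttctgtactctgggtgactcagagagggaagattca

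All of these windows are rich in CpG dinucleotides, with 35 in Smarcd1, 22 and 36 at the Arid1a starts, 22 in Mbd3 and 29 in Smarca2. Over the 32 windows the median was 29.5 CpG, against 7.0 over the 32851 windows of all genes, and 31 of the 32 held at least 15, as did 34.6% of all windows. The exception was Smarcd2, with 4. A GC box on either strand was present in 93.8% of the members' windows and in 35.7% of all windows, counting overlapping matches. The ETS site CCGGAAG was present in 15.6% of members' windows and 8.86% of all windows, the CCAAT box CCAAT in 34.4% and 37.4%, the TATA box TATAAA in 6.25% and 13.6%, and the E-box CACGTG in 9.38% and 7.15%. Each was searched on both strands, none contains another, and matches of different motifs may share bases. The printed windows of genes lower in Eed KO and that of Smarca2 were therefore all CpG-rich with a GC box. Smarce1, Chd3 and Mbd2, also higher in Eed KO, had no matched window. A match describes the letters and not a bound site. The windows of all genes were not limited to measured or bright genes. These shares thus do not set remodeler genes apart from other genes with a signal.

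Most remodeler genes had a lower signal in Eed KO cells than in control cells, by a modest amount. Of the 35 genes, 29 had a ratio of Eed KO to control below 1, against 41.1% of all 13794 measured genes. Their median log2 ratio was -0.44, with the middle of the list between -0.62 and -0.18, whereas the median over all measured genes was 0.12. At least 2-fold lower were 4 genes, the SWI/SNF subunits Smarcd1, Arid1a and Arid2 and the NuRD subunit Mbd3, against 3.27% of all measured genes. At least 2-fold higher were 0 genes, against 10.8% of all measured genes. With 1 array per group there is no replicate, so no test was made and each difference is one between these arrays.

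Each gene was read from its brightest probe set, by the mean log2 signal of both arrays. A gene counted as measured above a floor of 61.3, the 40th percentile of all signals, on at least 1 array. All 35 remodeler genes were above it on both arrays, so that no direction was set by the floor. Most gave a strong signal: 29 had a mean signal of at least 10 times the floor. Because ratios differed between bright and dim genes, the same counts were taken among the 5781 genes in that range. There 26 of the 29 remodeler genes had a ratio below 1, against 54.1% of genes, 4 of 29 were at least 2-fold lower, against 3.53%, and the medians were -0.44 and -0.05. Of the 6 dimmer members 3 were below 1, with a median of -0.21, against 0.27 over all dimmer genes.

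**Figure D1:**
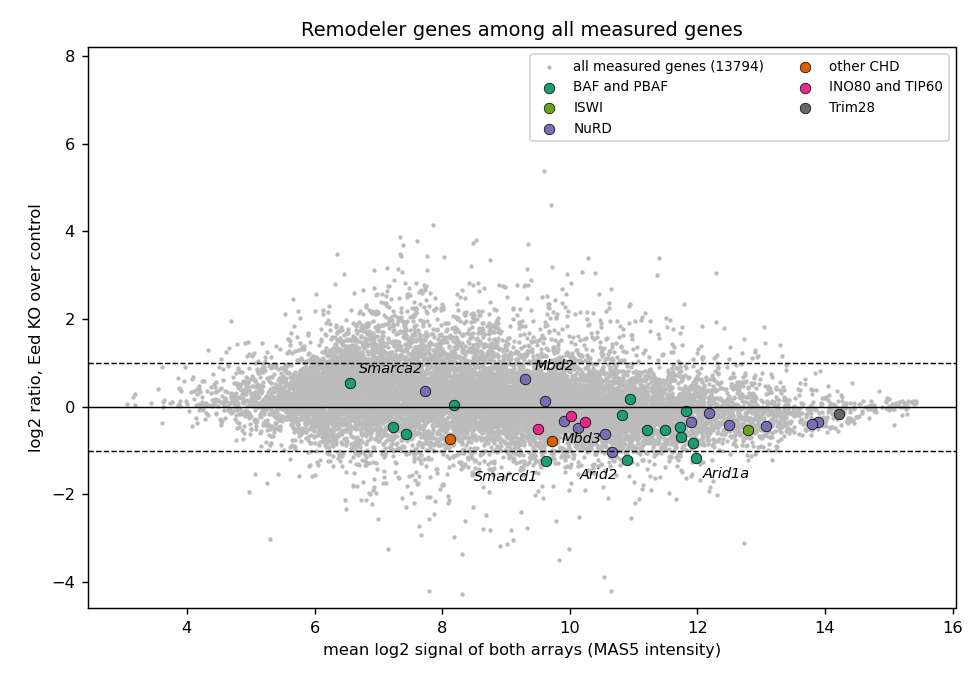
The log2 ratio of Eed KO over control (vertical axis) against the mean log2 signal of both arrays (horizontal axis) for 13794 measured genes in grey, with the 35 remodeler genes coloured by complex and dashed lines at 2-fold. Of the remodeler genes 29 lie below 0, 4 lie below the lower dashed line and 0 lie above the upper one.

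The arrays were first checked against their labels. The Eed probe set read 11456 in Eed KO and 10101 in control (1.13-fold); as the disrupted part of the gene is not given, a probe set outside it checks nothing. The ES cell factors Pou5f1 (11352 in Eed KO and 12948 in control), Sox2 (8531 and 11826) and Nanog (14393 and 8007) were bright on both arrays. Of the 5 ES cell markers counted, 3 had a ratio above 1 and 0 were at least 2-fold higher, with a median log2 ratio of 0.45. Fibroblast markers were higher in Eed KO: 22 of 25 were measured, and 22 of the 22 had a ratio above 1. At least 2-fold higher were 18, against 10.8% of all measured genes. Their summed signals were 52949 in Eed KO and 23658 in control. A ratio above 1 was also found for 3 of 4 neuron markers, 2 of 3 measured muscle markers and 8126 of all 13794 measured genes. At least 2-fold higher were 0 neuron markers and 1 muscle marker. Lum, Fap and the muscle marker Myog were under the floor on both arrays, and Fbn1 was not named on the array. The part of the fibroblast markers in the remodeler values was not tested. In bulk RNA fewer cells of a type and less RNA per cell cannot be told apart. The summed signal of the 35 remodeler genes was 104795 in Eed KO and 138812 in control.

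Different probe sets of a gene give the only repeat reading. Of the 92 probe sets 87 were measured, of which 69 read lower in Eed KO and 18 higher. At least 2-fold lower were 12 and at least 2-fold higher 1. The same counts over all probe sets of the array were not made, so these show only the repeat readings of these genes. For 4 of the 87, 1 each of Smarca2, Smarcc1, Gatad2b and Ep400, only 1 array was above the floor, which fixed the direction and made the ratio a bound. Among the 26 genes with several measured probe sets, 18 had all of them below 1, 3 had all above 1 and 5 had them on both sides. Over all genes on the array, 2 probe sets of the same gene had log2 ratios with an SD, per probe set, of 0.45 where the dimmer of the pair was under 256, 0.29 between 256 and 1024, and 0.20 above 1024. This covers technical and isoform spread and not the spread between cultures. The log2 ratios of Arid1a and Arid2 were several times this spread, while those of Kat5 (-0.20 and -0.42 for its 2 probe sets) and Trim28 (-0.16 and -0.29) lay within it or little above.

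**Figure D2:**
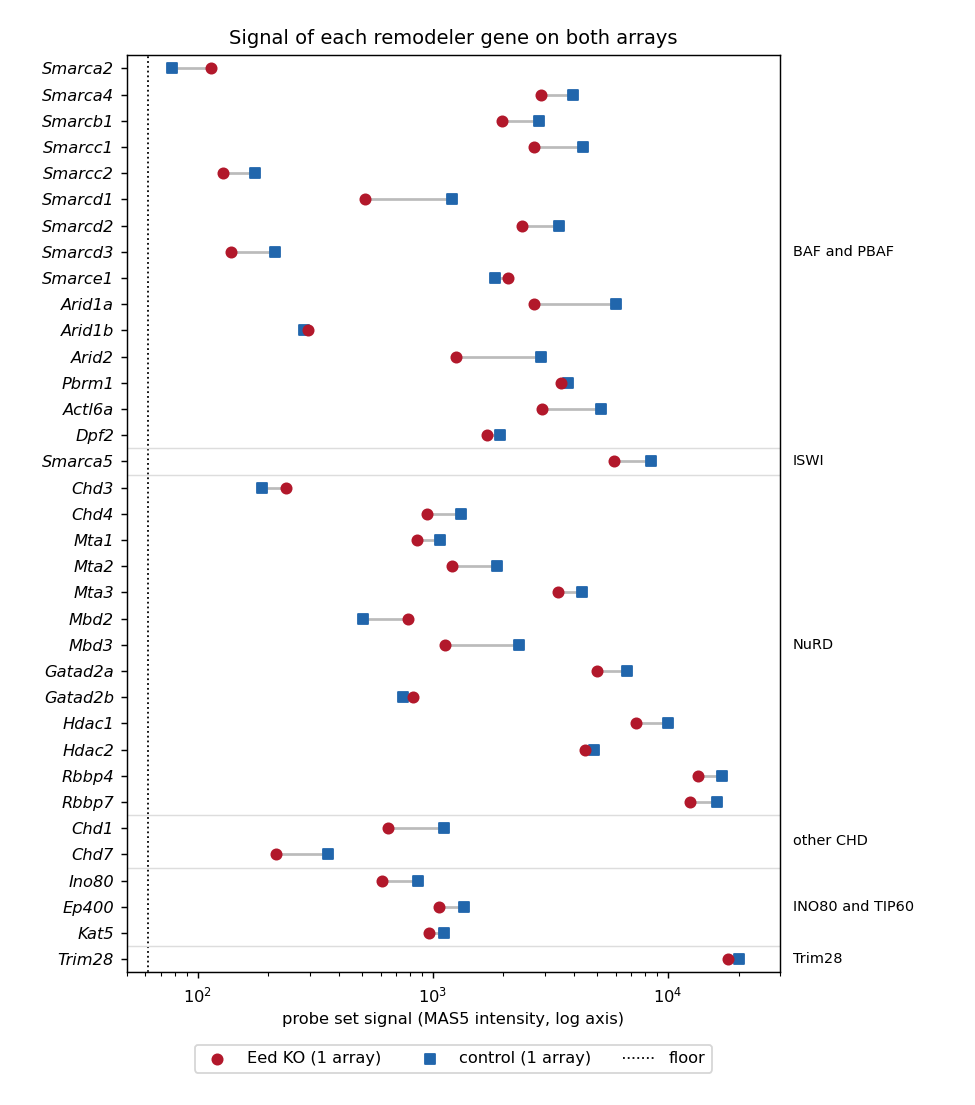
Signal of each of the 35 remodeler genes (MAS5 intensity, log axis) on the Eed KO array (circles) and the control array (squares), grouped by complex, with the floor of 61.3 dotted. The circle lies left of the square for 29 genes, most widely for Smarcd1, Arid2, Arid1a and Mbd3.

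The motor subunits of SWI/SNF differed in direction. Smarca4, the ATPase of esBAF, read 2895 in Eed KO and 3957 in control, a log2 ratio of -0.45, and its further probe set had -0.21. Smarca2, the alternative ATPase, read 114.3 in Eed KO and 77.9 in control, a log2 ratio of 0.55, and its further probe set was at least 1.70-fold higher, a bound set by the floor. Its signals lay close to the floor, where the spread between probe sets is widest. The ratio of Smarca4 was 2.01-fold below that of Smarca2, and its log2 ratio was at least 0.61 below in all 9 alternatives that measured both. A difference between 2 log2 ratios is not moved by a common scale factor between the arrays, but a trend with signal can move it. The median log2 ratio was 0.27 over all genes under 10 times the floor, where Smarca2 lies. It was -0.05 over brighter genes, where Smarca4 lies. After quantile normalization the log2 ratio of Smarca2 was 0.24.

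The ARID subunits, large proteins with a DNA-binding domain, help to define BAF and PBAF. Of the 3 here 2 were at least 2-fold lower, against 3.27% of all measured genes, and 3 genes are too few to describe the family. Arid1a, the signature subunit of esBAF, read 2691 in Eed KO and 6026 in control, 2.24-fold lower, and its further probe set read 1889 and 4037. The 2 probe sets had log2 ratios of -1.16 and -1.10. Its paralogue Arid1b, which replaces it in other BAF complexes, read 294.5 in Eed KO and 285.0 in control. That log2 ratio of 0.05 turned its sign in 5 alternatives, each of which rescaled the arrays, down to -0.26. Arid1a was thus 1.21 below Arid1b on the log2 scale, and at the smallest 0.90 below among the alternatives.

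Arid2 and Pbrm1 mark PBAF, the polybromo form of the complex. Arid2 read 1256 in Eed KO and 2892.5 in control, 2.30-fold lower. The other 3 Arid2 probe sets read 779.1 in Eed KO and 1463 in control, 197.3 and 567.6, and 120.7 and 280.6, with log2 ratios of -0.91, -1.52 and -1.22. All 4 probe sets of Arid2 were thus lower in Eed KO by close to 2-fold or more. Pbrm1, a reader of acetylated histones through its bromodomains, read 3517 in Eed KO and 3745 in control, a log2 ratio of -0.09 that turned to 0.01 in 2 alternatives. These PBAF genes thus read differently on the same arrays.

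Among the structural core subunits, Smarcc1, the scaffold of esBAF, read 2685 in Eed KO and 4358 in control, 1.62-fold lower. Of its other 3 measured probe sets, 2 had log2 ratios of -0.77 and -0.59, and the third was at least 1.26-fold lower, a bound set by the floor. The paralogue Smarcc2 read 128.1 in Eed KO and 176.4 in control, with a log2 ratio of -0.46. The order of these paralogues was not settled, since the difference of -0.24 turned to as much as 0.12 in 2 of 10 alternatives. Smarcb1, the small core subunit known as a tumour suppressor, read 1978 in Eed KO and 2835 in control, 1.43-fold lower, and a second probe set read 561.7 and 1543, a log2 ratio of -1.46. That second probe set ends in _x_at, the mark of a probe set that may cross-hybridize.

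All 3 members of the Smarcd family, which link SWI/SNF to transcription factors, read lower in Eed KO, as did 41.1% of all measured genes. Smarcd1 had the lowest log2 ratio of the 35 genes, -1.23, with 514.1 in Eed KO and 1209 in control (2.35-fold lower). It rested on 1 probe set, since its other was under the floor on both arrays. Smarcd2 read 2400.0 in Eed KO and 3456 in control, a log2 ratio of -0.53 with further probe sets at -0.43 and -0.11. Smarcd3, the heart and muscle form, read 138.9 in Eed KO and 212.6 in control, 1.53-fold lower. Smarcd1 was 0.71 below Smarcd2 and 0.62 below Smarcd3 on the log2 scale, and stayed below both in all 10 alternatives.

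The remaining SWI/SNF subunits went in different directions. Actl6a, the actin-related subunit of stem and progenitor cell complexes, read 2926 in Eed KO and 5202 in control, 1.78-fold lower. Its other probe sets read 2551 and 5639, a log2 ratio of -1.14, and 577.1 and 857.8, a log2 ratio of -0.57. The gene passed 2-fold in 3 alternatives. These were equal array medians, scaling on poly-A spikes, and the one without probe sets prone to cross-hybridize, where the probe set at -1.14 stood for the gene. Dpf2, a histone reader, read 1696 in Eed KO and 1939 in control, a log2 ratio of -0.19. Smarce1, a DNA-bending subunit, was one of the 3 SWI/SNF genes with a ratio above 1: it read 2095 in Eed KO and 1847 in control, a log2 ratio of 0.18 that turned negative in 2 alternatives. Its second probe set read 1382 and 826.1, a log2 ratio of 0.74. Over the 15 SWI/SNF genes 12 had a ratio below 1, against 41.1% of all measured genes, and the median was -0.52. At least 2-fold lower were 3, against 3.27% of all measured genes.

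**Figure D3:**
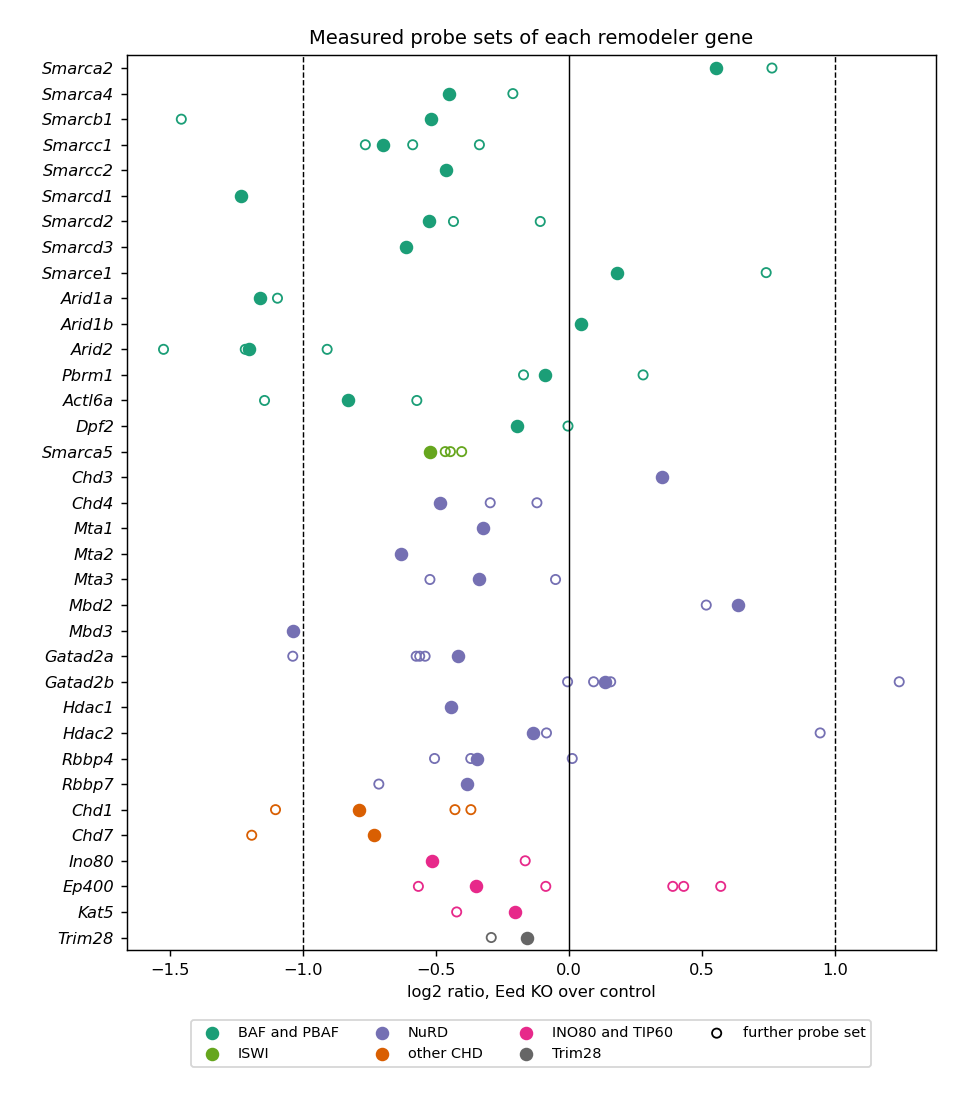
The log2 ratio of Eed KO over control for all 87 measured probe sets, 1 row per gene, with the probe set that stands for the gene filled and the others open, and dashed lines at 2-fold. The 4 Arid2 and both Arid1a probe sets lie near or beyond -1, while Ep400, Gatad2b and Hdac2 spread over both sides of 0.

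NuRD is the complex in which a CHD motor works with histone deacetylases. Of its 13 genes here 10 had a ratio below 1, against 41.1% of all measured genes, with a median log2 ratio of -0.35. At least 2-fold lower was 1 gene, against 3.27% of all measured genes. The main motor Chd4 read 945.3 in Eed KO and 1322.5 in control, a log2 ratio of -0.48 with further probe sets at -0.30 and -0.12. Chd3, the alternative motor, read 238.9 in Eed KO and 187.2 in control, a log2 ratio of 0.35 that stayed above 0 in all 10 alternatives, at 0.04 or more. The pair therefore differed by 0.84 on the log2 scale, and by at least 0.61 in every alternative.

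The subunits of the methyl-CpG-binding domain (MBD) family showed the widest contrast between paralogues. Mbd3, the form needed for NuRD assembly in ES cells, read 1131 in Eed KO and 2323 in control, 2.05-fold lower, on its only probe set. Mbd2, which binds methylated DNA and occupies the same place in other NuRD complexes, read 786.0 in Eed KO and 506.1 in control, 1.55-fold higher, and its second probe set read 597.4 and 417.5. It was the 1 remodeler gene at least 1.5-fold higher, a size reached by 23.3% of all measured genes. Mbd3 was 1.67 below Mbd2 on the log2 scale, a 3.19-fold difference between their ratios that stayed between 1.53 and 1.67 in all 10 alternatives. Mbd3 lies just past 2-fold: after removal of the intensity trend its log2 ratio was -0.997 and no longer reached it.

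The Gatad2 proteins bridge the MBD subunit to the motor. Gatad2a read 4996 in Eed KO and 6676 in control, a log2 ratio of -0.42, and its other 4 probe sets lay between -1.04 and -0.54. All 5 Gatad2a probe sets were thus lower in Eed KO. Gatad2b read 822.5 in Eed KO and 748.5 in control, a log2 ratio of 0.14 that turned negative in 2 alternatives. Among its further probe sets was the 1 remodeler probe set at least 2-fold higher, with 350.0 in Eed KO and 147.9 in control, beside others with log2 ratios of at most 0.16.

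The MTA proteins recruit the deacetylases. Mta2 read 1212 in Eed KO and 1875 in control, 1.55-fold lower, while Mta1 (854.6 and 1070.0) and Mta3 (3402 and 4298) had log2 ratios of -0.32 and -0.34. The deacetylase Hdac1 read 7354 in Eed KO and 10010 in control, a log2 ratio of -0.44. Hdac2 read 4423 in Eed KO and 4861 in control, a log2 ratio of -0.14 that turned to 0.24 as the mean over its probe sets. The histone chaperones Rbbp4 and Rbbp7, which PRC2 also contains, were both slightly lower. Rbbp4 read 13393 in Eed KO and 17017 in control, and Rbbp7 read 12456 and 16264, with log2 ratios of -0.35 and -0.38. A difference of 0.04 between them turned its sign in 1 alternative, as did that of 0.01 between Mta1 and Mta3 in 3.

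The remaining CHD and ISWI motors were all lower in Eed KO, as were 41.1% of all measured genes. Chd1, which keeps ES cell chromatin open, read 644.3 in Eed KO and 1112 in control, 1.73-fold lower, and its other 3 probe sets lay between -1.10 and -0.37 on the log2 scale. Chd7, mutated in CHARGE syndrome and active at enhancers, read 215.6 in Eed KO and 358.3 in control, 1.66-fold lower, with a second probe set at -1.19. Smarca5, the ISWI motor that spaces nucleosomes, read 5905 in Eed KO and 8486 in control, a log2 ratio of -0.52, and its other 3 probe sets lay between -0.46 and -0.40. The 4 Smarca5 probe sets were the tightest of any gene here with as many.

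In the INO80 and TIP60 complexes, which exchange histone variants and acetylate histones, all 3 genes were below 1 by small amounts. A ratio below 1 was found for 41.1% of all measured genes. Ino80, the motor of the complex named after it, read 609.2 in Eed KO and 869.5 in control, a log2 ratio of -0.51. Kat5, the TIP60 acetyltransferase, read 969.0 in Eed KO and 1115 in control, a log2 ratio of -0.20. Ep400, the motor of TIP60, read 1064 in Eed KO and 1356 in control, but 3 of its 6 measured probe sets had a ratio above 1, 1 of them under the floor in control, and the mean over all 6 was 0.07. Trim28, the KRAB zinc finger corepressor that silences endogenous retroviruses, differed little. It read 18045 in Eed KO and 20140 in control, a log2 ratio of -0.16.

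In all, 10 of the 35 genes were at least 1.5-fold lower, against 10.2% of all measured genes. They were Smarcd1, Arid2, Arid1a, Mbd3, Actl6a, Chd1, Chd7, Smarcc1, Mta2 and Smarcd3. Of the 9 motor genes, including Ep400, 7 had a ratio below 1, against 41.1% of all measured genes, and 0 were at least 2-fold different. Over all measured genes 3.27% were at least 2-fold lower and 10.8% higher, so 0 of 9 tells little about motors. The 6 genes with a ratio above 1 were Smarca2, Smarce1, Arid1b, Chd3, Mbd2 and Gatad2b, of which Smarca2, Chd3 and Mbd2 stayed above 1 in every alternative that measured them.

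**Figure D4:**
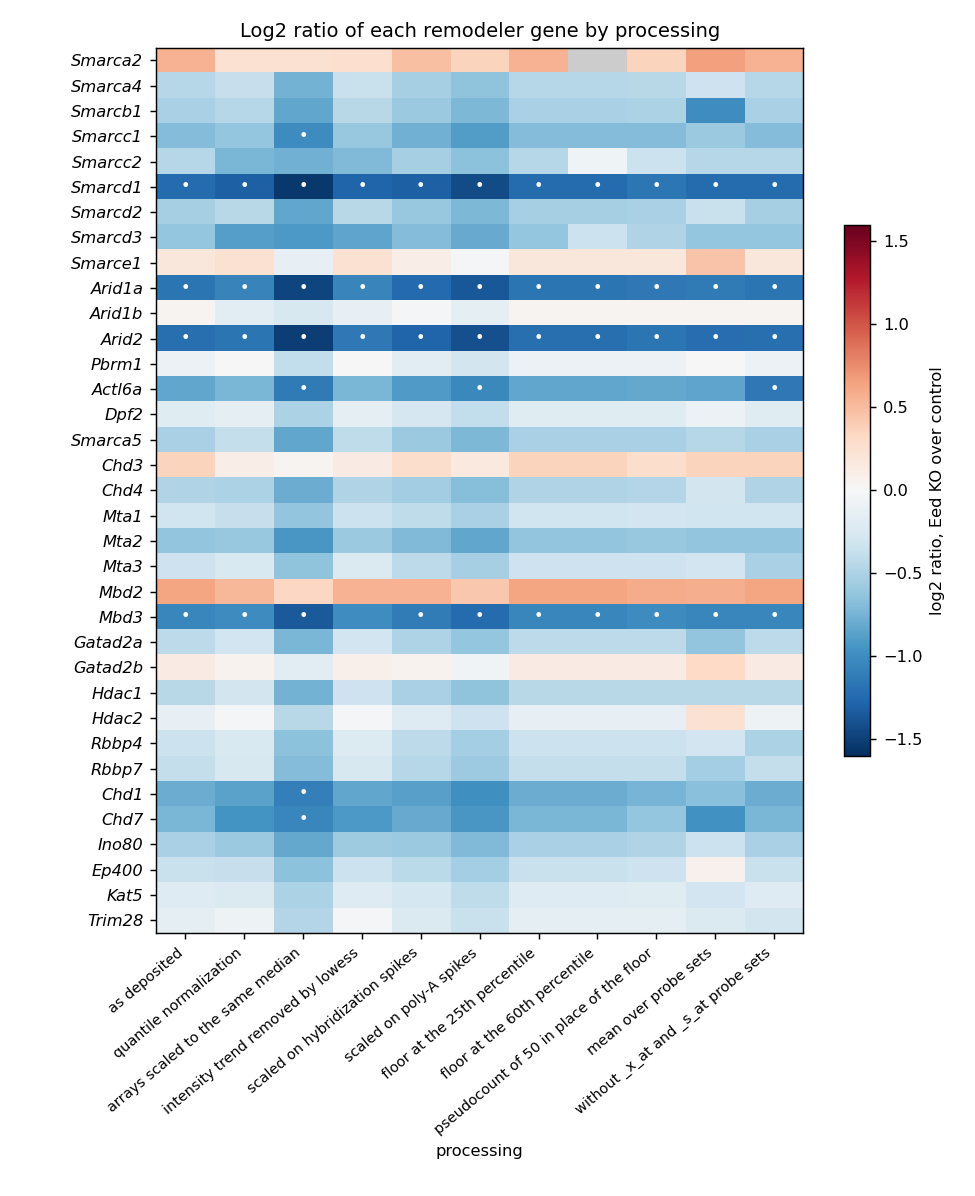
Log2 ratio of Eed KO over control for each of the 35 remodeler genes (rows) as deposited and under 10 alternatives (columns), with a white dot where a gene was at least 2-fold different and grey where it was not measured. Smarcd1, Arid1a and Arid2 carry a dot in all columns, and Smarca2, Chd3 and Mbd2 keep a ratio above 1 wherever they were measured.

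Further subunits of these complexes, other SNF2 and CHD motors and Trim28 partners were also counted. Of 76 such measured genes 57 (75%) had a ratio below 1, against 41.1% of all measured genes, with a median log2 ratio of -0.23. At least 2-fold lower were 4 (5.26%), near the 3.27% of all measured genes, and 0 were at least 2-fold higher. The 4 were Ino80e, an INO80 subunit (989.3 in Eed KO and 2518 in control, all 3 probe sets between -1.86 and -1.18), the CHD motors Chd9 (551.9 and 1237) and Chd8 (617.7 and 1240), and the ISWI motor Smarca1 (121.0 and 246.2). The 4 Chd8 probe sets ranged from -1.01 to -0.10 on the log2 scale. The 3 of Chd9 ranged from -1.16 to -0.29, the last of them a bound set by the floor. Chd8 and Smarca1 passed 2-fold in 8 of 10 alternatives, Chd9 in 9 and Ino80e in all 10. Medians by list were -0.36 over 27 other INO80, SRCAP and TIP60 genes, -0.21 over 11 other ISWI genes, -0.17 over 5 other SNF2 enzymes, -0.11 over 5 other CHD genes, -0.08 over 15 other SWI/SNF genes and 0.16 over 7 other NuRD genes. In the NuRD list 5 of 7 genes had a ratio above 1, as had 8126 of all 13794 measured genes. Most of the 5 turned below 1 in some alternative. The 6 partners of Trim28 in heterochromatin all had a ratio below 1, against 41.1% of all measured genes. Their median was -0.69, with 0 of them at 2-fold. Some of them had a further probe set above 1, up to a log2 ratio of 0.47. Another was read from a single dim probe set (104.2 in Eed KO and 196.2 in control).

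**Figure D5:**
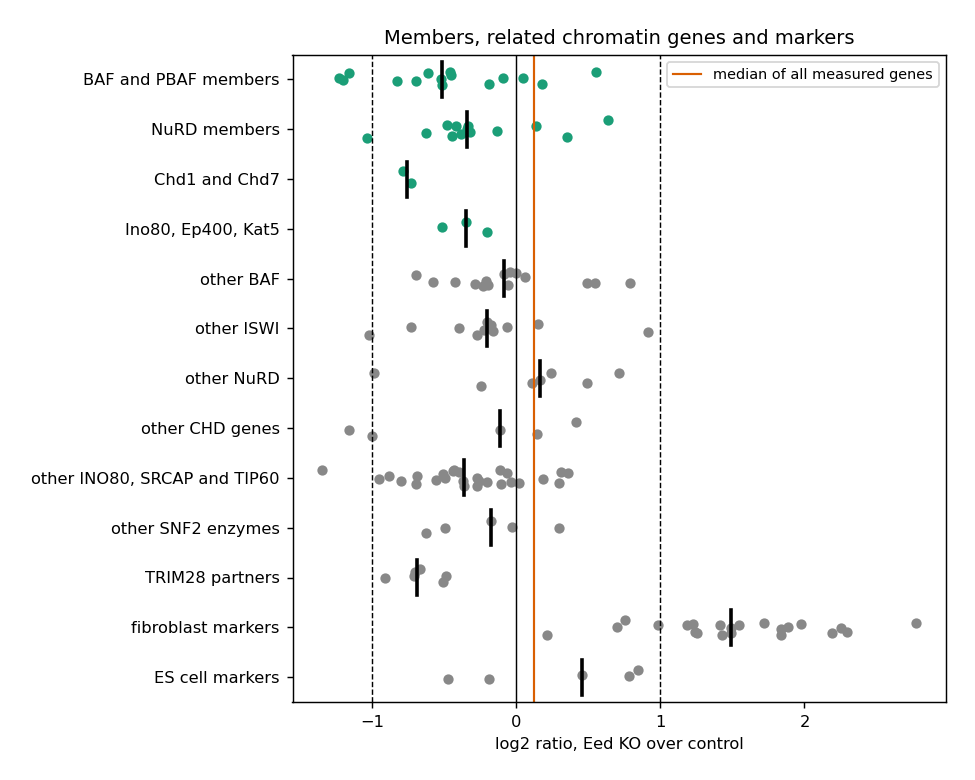
Log2 ratio of Eed KO over control of each measured gene (points) and the median (black bars) for the remodeler genes by complex, for related chromatin genes and for fibroblast and ES cell markers, with dashed lines at 2-fold. The orange line at 0.12 is the median of all measured genes; the medians of the SWI/SNF and NuRD members are -0.52 and -0.35, and that of the fibroblast markers is 1.49.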

How the data were processed

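Total RNA of 1 Eed KO and 1 control ES cell sample was hybridized to 2 arrays, and groups were taken from the sample titles. The authors deposited 1 linear intensity per probe set and array, computed with MAS5, per the submitters' processing notes, with no version given there. The trimmed mean without the lowest and highest 2% was 500.0 on both arrays, so they were used as deposited. The median signal was 108.1 in Eed KO and 87.4 in control. Precision is limited by having 1 array per group.

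Of 45101 probe sets, 34945 had 1 symbol in the platform annotation, 932 several, 9160 none, and 64 were controls. Any signal below the floor was raised to it, and log2 ratios were computed with pandas 2.3.3. Members, lists and settings were chosen with earlier results of these data known. Every member was named; of each further list of chromatin genes, at most 4 at least 2-fold different. Of the markers, Pou5f1, Sox2, Nanog and those not measured were named as a check of the labels. The ratio and call steps were tested on simulated data. The alternatives rescaled the arrays (by quantiles, to equal medians, on hybridization or poly-A spikes, or without a lowess trend of span 0.3 in statsmodels 0.14.6), moved the floor (percentile 25 or 60), replaced it by a pseudocount of 50, averaged the probe sets of a gene, dropped those named _s_at or _x_at, or called 1.5-fold or 3-fold.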

Additional observations from a re-analysis of the deposited data

How the results depend on the processing

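The deposited scaling gave 0 remodeler genes at least 2-fold higher, against 10.8% of all measured genes. All 10 alternatives in scaling, floor and probe set choice also gave 0. At 1.5-fold 1 was higher, against 23.3% of all measured genes. The deposited scaling gave 4 at least 2-fold lower, against 3.27% of all measured genes. When medians were equalised 8 were at least 2-fold lower, against 7.53% of all measured genes. At 1.5-fold 10 were lower, against 10.2% of all measured genes, and at 3-fold 0. In the other alternatives 3 to 5 were at least 2-fold lower, against 2.75% to 5.57% of all measured genes. Smarcd1, Arid1a and Arid2 were at least 2-fold lower in all 10 and Mbd3 in 9. Smarcc1, Actl6a, Chd1 and Chd7 joined them when medians were equalised.

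The median log2 ratio of -0.44 was -0.75 with equal array medians, -0.64 with poly-A spike scaling, -0.34 without the intensity trend and -0.34 when the probe sets of a gene were averaged. The median of all measured genes moved from 0.12 to -0.16 with equal array medians. Relative to that median, an alternative chosen after seeing the data, the list was at -0.57 as deposited, and between -0.60 and -0.38 otherwise, nearest 0 after quantile normalization and removal of the intensity trend. Of the 35 genes 6 turned their sign in some alternative, and 26 had a ratio below 1 in all of them. Among all measured genes 39.8% to 60.6% had a ratio below 1, depending on the alternative. Smarca2 was not measured with the floor at the 60th percentile. No paired analysis was possible because each group has 1 array. With 1 array per group, differences between cultures, clones and hybridizations cannot be told apart from the knockout.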
